A study of Mus musculus with 2 samples.

Results

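The protein tyrosine phosphatases and dual-specificity phosphatases of P5424 cells were examined across 62 genes. They were taken by a rule on names, as every gene on the array called Ptpn or Dusp with a number, or Ptpr with a letter. The rule was set with earlier results of these data known. These genes had 101 of the 55681 non-control probes of the array, each 60 bases long and present as 1 spot. By structure they comprised 21 receptor-type genes (42 probes), 17 cytosolic genes (24 probes), 10 MAP kinase phosphatases (14 probes) and 14 atypical dual-specificity phosphatases (21 probes). P5424 is a mouse T-cell line, labelled as a knockout of Rag2, a subunit of the antigen receptor recombinase, and of the tumour suppressor P53 (Trp53). The cells were untreated and cultured in RPMI1640 to which fetal bovine serum and 2-mercaptoethanol had been added. The 2 samples, called replicate 1 and replicate 2, form 1 group, so there was no second condition and no test between groups. It is not stated whether they came from separate cultures, and the spread between them may be technical.

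Tyrosine phosphorylation starts most signals from the T-cell receptor, and tyrosine phosphatases set its level. Classical tyrosine phosphatases share a catalytic domain with a reactive cysteine and act on phosphotyrosine. The receptor-type members are anchored in the membrane, and many have extracellular segments that resemble adhesion molecules. The cytosolic members carry domains that place them at receptors, membranes or the cytoskeleton. Dual-specificity phosphatases accept phosphotyrosine as well as phosphoserine and phosphothreonine. Among them the MAP kinase phosphatases switch off ERK, JNK and p38, while the atypical members lack the domain that docks on MAP kinases and have varied substrates, some of which are not proteins.

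The probes that measured these genes can be read directly. The following 6 lie in stretches with an open reading frame and are shown because their genes stand on either side of the detection call, or because probes of 1 gene gave different calls. Capitals mark codons of the phosphatase domain in Ptprd (Tyr-Ile-Asn-Ala), Ptprm (Lys-Asn-Arg-Tyr) and Ptprj (Val-His-Cys, the start of the signature that holds the catalytic cysteine). In Ptprc they mark the final codon, a stop, in the frame that begins at the first base.
Ptprc: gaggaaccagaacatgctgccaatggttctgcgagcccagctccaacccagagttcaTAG
Ptprd: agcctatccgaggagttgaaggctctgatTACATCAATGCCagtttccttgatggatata
Ptprm: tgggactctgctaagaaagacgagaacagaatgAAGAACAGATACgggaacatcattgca
Ptprj: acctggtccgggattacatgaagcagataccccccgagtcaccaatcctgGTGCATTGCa
Ptprn2: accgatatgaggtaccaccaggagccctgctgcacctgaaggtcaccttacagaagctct
Dusp22: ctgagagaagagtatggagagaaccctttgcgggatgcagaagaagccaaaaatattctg
On the mouse build mm9 these probes lie at chr1:139961083-139961142 (Ptprc, minus strand), chr4:75602211-75602270 (Ptprd, minus), chr17:67111470-67111529 (Ptprm, minus), chr2:90280783-90280842 (Ptprj, minus), chr12:117960601-117960660 (Ptprn2, plus) and chr13:30800558-30800617 (Dusp22, plus). The probes of Ptprc, Ptprj, Ptprn2 and Dusp22 were detected and those of Ptprd and Ptprm were not. The 3 motifs were searched as translated residues in the 3 forward frames. Of the 101 member probes, 3 (2.97%) held such a motif in an open frame, against 111 of all 55681 probes (0.199%). The motifs belong to the domain of classical tyrosine phosphatases, so a higher share follows from the choice of genes and says nothing on expression. Whether a probe lies in an exon or an untranslated region was not analysed here.

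A gene was called detected when the scanner software marked at least 1 of its probes well above background on both arrays. By that rule 38 of the 62 phosphatase genes (61.3%) were detected, where 54.1% of all 19984 protein-coding genes on the array were. The classes differed in their counts. Of the 10 MAP kinase phosphatases 9 were detected and of the 17 cytosolic phosphatases 14 were, whereas the receptor-type class had 9 of 21 and the atypical class 6 of 14. The cytosolic and MAP kinase phosphatase shares, 82.4% and 90%, thus lay above the share of all coding genes, and the receptor-type and atypical shares, both 42.9%, lay below it. No test between the classes was made. Genes with several probes have more chances to be called: among the 36 members with a single probe, 23 were detected, including 4 of 9 receptor-type, 9 of 12 cytosolic, 6 of 7 MAP kinase phosphatase and 4 of 8 atypical genes, where 47.7% of the 13286 coding genes with a single probe were. Among single-probe genes the receptor-type and atypical counts were thus close to the share of all coding genes. With 2 probes, 3 of 5 receptor-type, 3 of 3 cytosolic, 2 of 2 MAP kinase phosphatase and 1 of 5 atypical genes were detected, against 65.1%. With 3 or more probes, the counts in the same order were 2 of 7, 2 of 2, 1 of 1 and 1 of 1, against 72.3%. With a laxer rule, a positive and significant signal on both arrays, the receptor-type count rose to 14 of 21 while that of all coding genes rose to 69.4%.

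**Figure D1:**
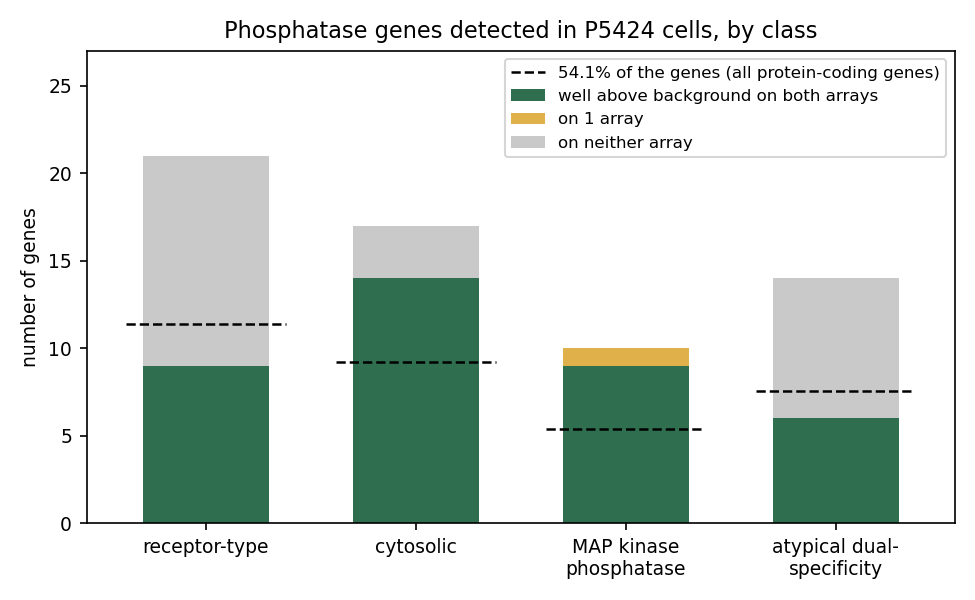
Number of phosphatase genes per class that were well above background on both arrays, on 1 array or on neither, with dashed lines at 54.1% of each class, the share of all protein-coding genes detected. The bars for cytosolic (14 of 17) and MAP kinase phosphatases (9 of 10) pass the line, and those for receptor-type (9 of 21) and atypical genes (6 of 14) stop below it.

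On replicates 1 and 2 the 75th percentile of the processed signal was 324 and 299 intensity units, and 42.5% and 41.2% of the probes were detected. The 308 negative control spots had a median of 6.55 and 7.5 units and a maximum of 15.1 and 101 units. All 8 T-lineage markers checked were detected (Cd3e, Cd3d, Cd3g, Lck, Bcl11b, Thy1, Cd4 and Cd8a). Detected markers of other lineages were Cd79a of 5 B-lineage genes, Csf1r and Cd68 of 5 myeloid genes (Mpo on 1 array), Klf1 of 4 erythroid genes and 0 of 7 epithelial and stromal genes. Cd68 had 1685 and 1473 units, from 1 of its 2 probes. The others were lower: Csf1r had 77.6 and 133 units, Cd79a 51.3 and 42.5, and Klf1 72.8 and 63.6. The part of other cells in the phosphatase signals was not tested. Both probes of Rag2 (signals of 2132 and 2086 units, and of 90.2 and 88.5 units) and the probe of Trp53 (746 and 996 units) were also detected. The deleted parts are not given in the labels, so these signals do not check the knockouts.

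For each gene the value on replicate 1 is given first, on a log2 scale whose 0 is the 75th percentile of the probes of that array. Such values depend on each probe's own response and are not compared between genes as amounts of RNA. Of the 38 detected members, 23 lay above the 75th percentile on both arrays at their brightest detected probe, against 75.5% of the detected coding genes. They were 10 cytosolic, 5 MAP kinase phosphatase, 4 receptor-type and 4 atypical genes.

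**Figure D2:**
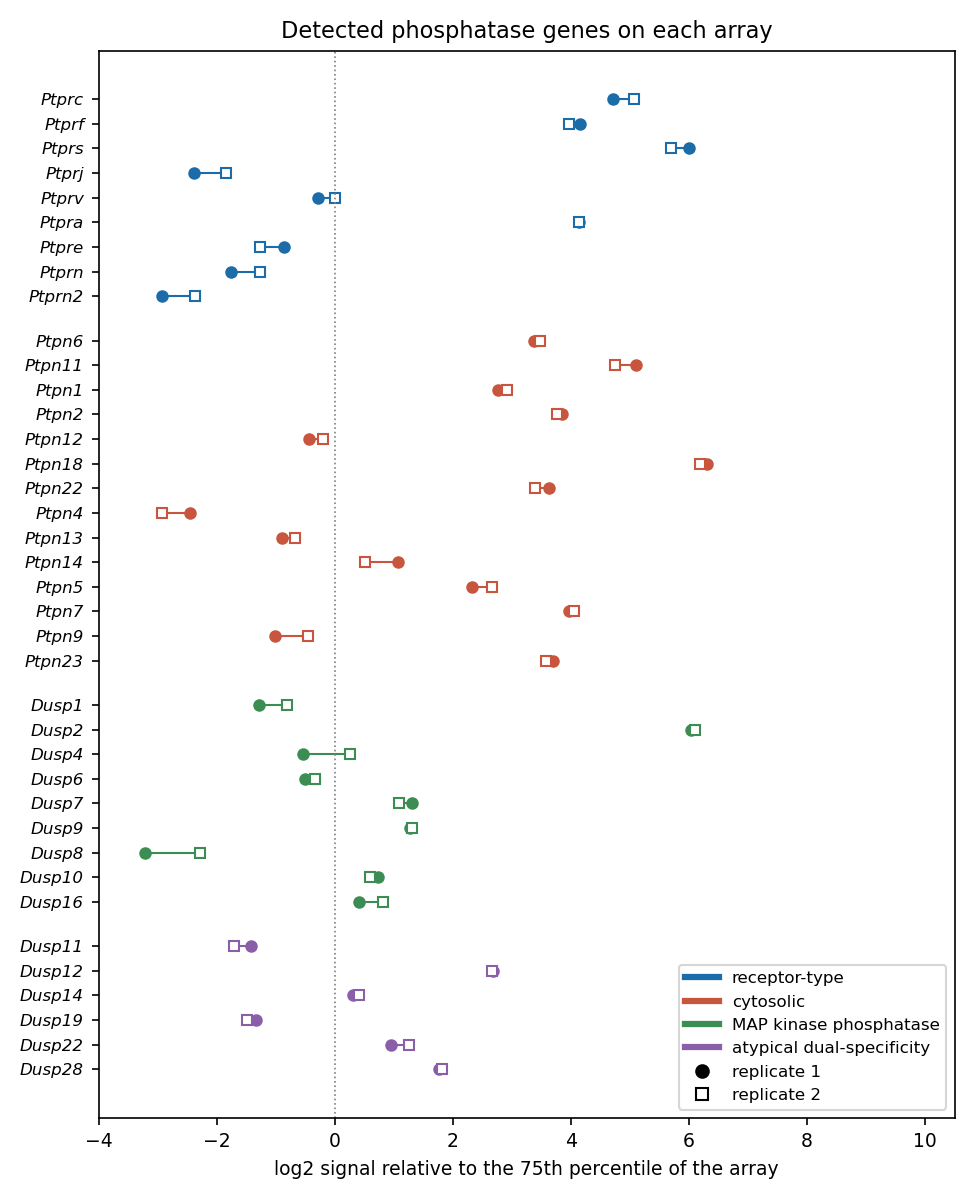
Log2 signal of each detected phosphatase gene, centred on its array's 75th percentile (dotted line), with replicate 1 as filled circles and replicate 2 as open squares, grouped by class. The pair of points lies close together for most genes, and those of Dusp8 (-3.21 and -2.28) and Dusp4 (-0.54 and 0.25) lie farthest apart.

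Among the receptor-type phosphatases, Ptprc encodes CD45, which removes the inhibitory phosphate of Lck and so keeps the T-cell receptor responsive. It had signals of 8538 and 10040 units and values of 4.72 and 5.07 (4.89 ± 0.25, mean ± SD, n = 2), and its probe is the first sequence shown above. The transcript of its partner Ptprcap, the CD45-associated protein, was detected too, at 6.89 and 7.02. The LAR group, whose extracellular segments combine immunoglobulin-like and fibronectin domains and which is best known from axon guidance and synapses, had 2 of 3 members detected. Ptprs, a receptor for proteoglycans, had 20800 and 15415 units at its brighter probe (value of 5.85 ± 0.22, mean ± SD, n = 2). Its other probe, 33414 bases away in the genome and designed on another transcript, had 306 and 151 units, a difference of -0.90 on the log2 scale (replicate 2 minus replicate 1). Ptprf, which encodes LAR itself, had values of 4.16 and 3.97. None of the 4 probes of Ptprd, their close relative, was well above background on either array, with signals of 6.26 to 8.33 units, in the range of the negative controls. Thus Ptprf and Ptprs were measured well above background while Ptprd was not.

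The 2 members with short extracellular segments, which dephosphorylate Src-family kinases, were both detected. Ptpra had the same value on both arrays to 2 decimals, 4.14. Ptpre had -0.86 and -1.26 at its brighter probe, below the 75th percentile on both arrays. In the group with extracellular segments of fibronectin repeats, 2 of 6 were detected. Ptprj, which encodes CD148, a phosphatase of haematopoietic cells and epithelia, had -2.38 and -1.84. Ptprv, a mouse gene first described in bone, had -0.29 and 0.00. Ptprb of endothelium, Ptprh, Ptpro and Ptprq were not well above background.

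By the main rule, whole groups of receptor-type genes were below the detection call. The MAM-domain group, homophilic adhesion phosphatases that stand at cell contacts (Ptprk, Ptprm, Ptprt and Ptpru), had 0 of 4 detected over their 7 probes. The carbonic-anhydrase-like group (Ptprg and Ptprz1) had 0 of 2, and Ptprr, which binds MAP kinases, was also not well above background. The brightest Ptprz1 probe, with 19.7 and 10.8 units, is placed on chromosome 18, while its other probes lie on chromosome 6. Those had 6.06 and 6.89 units and 6.96 and 8.28 units. The laxer rule given earlier called Ptprk, Ptpru, Ptprr and Ptprz1, but not Ptprm, Ptprt and Ptprg. Ptprk had 20.3 and 26.1 units at its only probe, where the brightest negative control spots had 15.1 and 101 units. Ptprr had 6.22 and 7.53 units at its only probe, where the negative control medians were 6.55 and 7.5 units. The laxer rule thus also called a gene at the level of the negative controls. A link of these calls with tissue was not tested. The granule proteins Ptprn and Ptprn2, autoantigens of type I diabetes with little or no activity on phosphotyrosine, were both called detected, at -1.75 and -1.27 for Ptprn and at -2.93 and -2.36 for Ptprn2. Ptprj and Ptprn2 lay below the brightest negative control spot of replicate 2, and without such genes the receptor-type count was 7 of 21. Of all coding genes, 48.5% were detected by that stricter rule.

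The cytosolic phosphatases with SH2 domains and the pair of PTP1B and TCPTP were all detected. Ptpn6 encodes SHP-1, which is recruited by its SH2 domains to inhibitory receptors, and had 3382 and 3306 units and values of 3.38 and 3.47. Its relative Ptpn11 (SHP-2), which promotes Ras and ERK signalling downstream of growth factor and cytokine receptors, had 11204 and 7988 units and values of 5.11 and 4.74. Ptpn1 (PTP1B), which acts on the insulin receptor and Janus kinases, had 2.77 and 2.91 at its brighter probe. The other Ptpn1 probe, also detected, had -1.56 and -0.78. Ptpn2 (TCPTP), a negative regulator of Janus kinases and of T-cell receptor signalling, had 3.84 and 3.77 at the brightest of its 3 probes. At their brightest detected probe, all 4 of these genes lay above the 75th percentile on both arrays.

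The PEST group, whose members have a tail rich in proline, glutamate, serine and threonine, had 3 of 3 detected. Ptpn22, which cooperates with the kinase Csk to restrain Src-family kinases in lymphocytes, had 3974 and 3122 units and values of 3.62 and 3.39. Ptpn18 had 25584 and 21675 units and values of 6.30 and 6.18, and Ptpn12 (PTP-PEST), which acts on adhesion proteins, had -0.44 and -0.20. Of the 3, Ptpn12 alone lay below the 75th percentile. The phosphatases with a kinase interaction motif, which bind ERK and p38, were both called detected. Ptpn7, the haematopoietic member, had 5060 and 4974 units and values of 3.96 and 4.06 at its brighter probe. The other Ptpn7 probe, also detected, had 109 and 129 units and values of -1.58 and -1.21. Ptpn5, the striatum-enriched member, had 2.33 and 2.66 from 1 probe only, described below.

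The FERM-domain group, which attaches to membranes and the cytoskeleton, was the cytosolic group with undetected members. Ptpn4 had -2.45 and -2.92, Ptpn13 had -0.90 and -0.67, and Ptpn14, a regulator of the transcriptional coactivator YAP, had 1.07 and 0.51. Ptpn3, Ptpn20 and Ptpn21 were not well above background, each over a single probe. The remaining cytosolic genes were detected: Ptpn9, which is found on secretory vesicles, had -1.01 and -0.46, and Ptpn23, which takes part in endosomal sorting, had 3.70 and 3.58. Ptpn4 also lay below the brightest negative control spot of replicate 2.

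The MAP kinase phosphatases were nearly all called, but most with values near the 75th percentile. Of the nuclear, inducible group, Dusp2 (PAC-1), first found in activated T cells, had 21125 and 20426 units and values of 6.03 and 6.10. The same group's Dusp1 had -1.29 and -0.81 and Dusp4 had -0.54 and 0.25, so that Dusp4 lay on different sides of the percentile on the arrays. Dusp5, which targets ERK in the nucleus, was well above background on replicate 2 alone, with signals of 33.2 and 43 units. A single gene of this group, Dusp2, thus lay above the 75th percentile on both arrays. In the cytoplasmic group directed at ERK, Dusp6, a feedback target of ERK signalling, had -0.51 and -0.33. Dusp7 had 1.30 and 1.08 at the brighter of its overlapping probes, and Dusp9 had 1.27 and 1.31. Of the group directed at JNK and p38, Dusp10 had 0.74 and 0.59 and Dusp16 had 0.41 and 0.81. Dusp8 had -3.21 and -2.28, from a probe whose orientation is treated below. The class spanned values from -3.21 to 6.10.

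The atypical dual-specificity phosphatases had 6 of 14 members detected. Dusp12, which carries a zinc-binding domain and is linked to ribosome assembly, had 2075 and 1907 units and values of 2.68 and 2.67. Dusp28 had 1.76 and 1.81, and Dusp22, which dephosphorylates Lck, had 0.95 and 1.26. Dusp14, a negative regulator of T-cell receptor signalling, had 0.31 and 0.41. These 4 genes lay above the 75th percentile on both arrays at their brightest detected probe. A second detected probe of Dusp22 lay below it, at -0.20 and -0.24. The remaining detected genes lay below the percentile: Dusp11, an RNA phosphatase, had -1.42 and -1.71, and Dusp19 had -1.34 and -1.48. Dusp3, Dusp13, Dusp15, Dusp18, Dusp21, Dusp23, Dusp26 and Dusp27 were not well above background on either array. Genes known from muscle (Dusp13, Dusp27), testis (Dusp21) and brain (Dusp26) are only part of this list, and a link of the calls with tissue was not tested.

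Probes of the same gene did not always give the same call. Of 26 members with several probes, 8 had all of them detected, 11 had none and 7 (26.9%) had some, against 22.5% of the 6698 coding genes with several probes. The 7 were Ptprj, Ptprn2, Ptpn2, Ptpn5, Dusp8, Dusp16 and Dusp22. For 3 of them the detected probe lies far from, or against the direction of, the rest of the gene. The Ptpn5 probe at chr7:54388141-54388200 (mm9), designed on transcript ENSMUST00000130381, had 1631 and 1883 units. The other two probes of Ptpn5, 50317 and 54916 bases away toward the end of the gene, had 6.72 and 7.62 units and 5.97 and 6.56 units. The signal of Ptpn5 therefore came from a stretch upstream of its other probes, which stayed at the level of the negative controls.

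Ptprn2 showed the same arrangement at lower signals. Its detected probe, shown above, begins at base 350 of the transcript and had 42.6 and 58.1 units. The other two probes begin at bases 3254 and 3269, overlap each other and lie 554606 bases away in the genome, with 18.6 and 7.08 units and 10.3 and 7.56 units. In Dusp8 the single detected probe, at chr7:149267032-149267091 (mm9), follows the expressed sequence tag AI593498 and has the plus strand, while Dusp8 is a minus-strand gene. Of 79 member probes whose gene has a known strand, it was the 1 probe with the opposite orientation. It had 35.1 and 61.7 units, and the Dusp8 probes in the gene's own orientation had 7.37 and 8.12 units and 6.37 and 7.36 units. Without it Dusp8 is not detected and the MAP kinase phosphatases count 8 of 10.

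The remaining split genes kept at least 1 detected probe on a reference transcript. Dusp16 had 431 and 525 units at base 4755 of its transcript and 8.39 and 19.4 units at base 2535. Dusp22 had 625 and 714 units at the probe shown above, 282 and 254 units at a probe of another transcript, and 6.39 and 7.27 units at the third. Ptpn2 had 4659 and 4088 units at its last probe and 436 and 405 units at its first, with 16.5 and 8.83 units at the probe between them. In Ptprj, 3 of 4 probes were detected at 40 to 83.6 units, among them the probe over the catalytic signature shown above (40 and 41.5 units), and the fourth had 7 and 8.12 units. When only genes with every probe detected are counted, 31 of 62 members remain, against 46.6% of the coding genes.

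**Figure D3:**
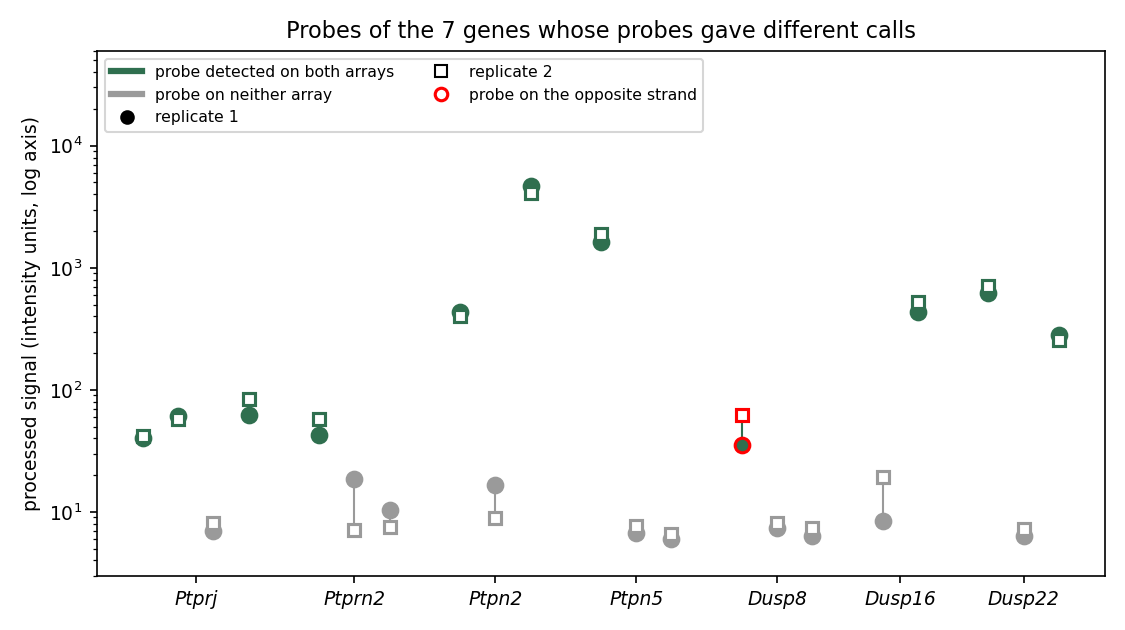
Processed signal in intensity units (log axis) of each probe of the 7 genes whose probes gave different calls. Filled circles are replicate 1 and open squares replicate 2. Probes of a gene are ordered by their start in the transcript each was designed on, which can differ from their order in the genome. Green probes were detected on both arrays and grey ones on neither, and the red outline marks the Dusp8 probe on the opposite strand (35.1 and 61.7 units).

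The stretch around the transcription start was compared for the 50 of 62 members with an entry in the RefSeq promoter table (build GRCm38.p6), from 250 bases before to 50 after the start. The dinucleotide CG, which reads the same on both strands, was counted, taking the richest window where a gene has several. Over all coding genes the median was 22 CG in 8775 detected genes and 5 in 7221 not detected ones. The phosphatases did not show that gap, with a median of 25.5 in 32 detected members and 23 in 18 not detected ones. In the receptor-type class the medians stood the other way round, 22.5 in 8 detected and 36 in 9 not detected genes. These are descriptions over genes and were not tested.

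The windows differed widely among the members, and the genes named here were picked after their values were seen. Ptprk, Ptprm, Ptprt and Ptpru, none of them detected, had 38 to 46 CG, whereas the detected Ptprc had 4, Ptpn22 had 6, Ptpn6 had 8 and Ptpn7 had 10. Other detected genes that act in T cells had many, such as Dusp22 with 49, Ptprj with 42 and Dusp14 with 37, and the undetected Dusp27 and Ptprh had 3 and 4. With 0 to 10 CG, 5 of 9 members were detected (Ptprc, Ptpn6, Ptpn22, Ptpn7 and Dusp12, but not Ptprh, Ptpro, Dusp13 and Dusp27), against 22.9% of the coding genes with such windows. With 11 to 25 CG it was 11 of 16 members against 71.7%, and with 26 or more it was 16 of 25 against 79%. The 250 bases before the start of a detected gene with few CG and an undetected gene with many are shown with CG in capitals.
Ptprc: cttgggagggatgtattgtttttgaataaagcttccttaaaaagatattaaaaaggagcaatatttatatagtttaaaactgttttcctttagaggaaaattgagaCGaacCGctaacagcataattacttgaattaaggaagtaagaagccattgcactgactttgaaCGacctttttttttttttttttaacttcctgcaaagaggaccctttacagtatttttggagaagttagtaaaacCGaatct
Ptprt: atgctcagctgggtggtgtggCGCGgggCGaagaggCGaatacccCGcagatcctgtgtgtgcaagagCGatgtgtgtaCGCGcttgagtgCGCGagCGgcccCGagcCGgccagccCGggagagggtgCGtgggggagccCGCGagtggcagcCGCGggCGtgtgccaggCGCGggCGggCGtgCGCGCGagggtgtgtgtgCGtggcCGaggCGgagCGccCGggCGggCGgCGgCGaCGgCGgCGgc
They lie at chr1:138175306-138175555 (Ptprc) and chr2:162661148-162661397 (Ptprt) of GRCm38.p6, both read from the minus strand, with 4 and 39 CG in the stretch. Methylation and binding of factors at these windows were not measured here.

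**Figure D4:**
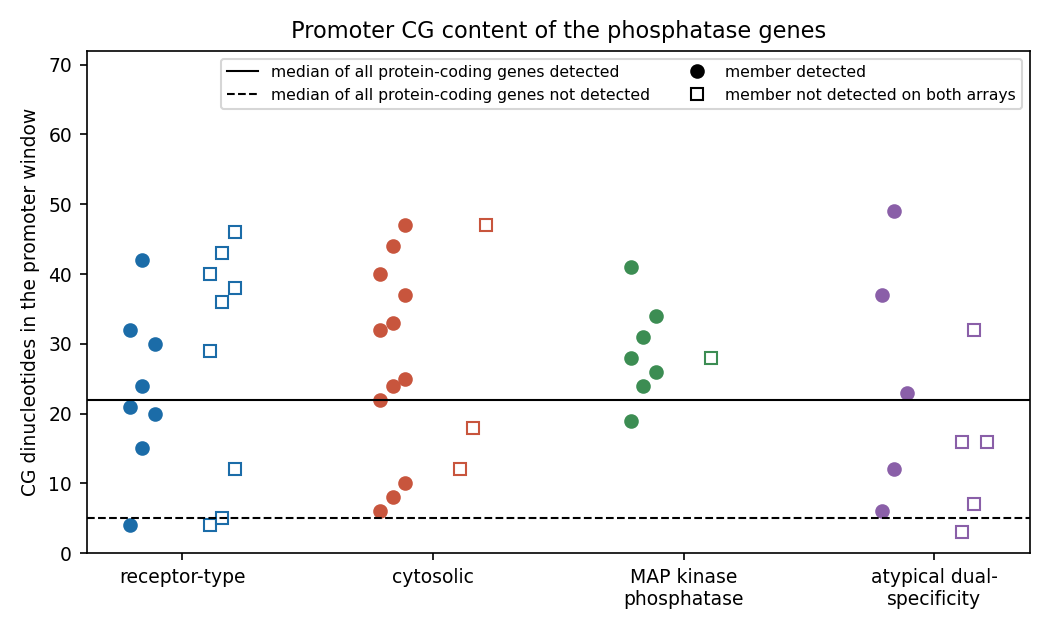
Number of CG dinucleotides in the 300-base promoter window of each phosphatase gene by class, with filled circles for detected and open squares for undetected members. The lines give the medians of all detected (22) and undetected (5) coding genes, and 6 of the 9 undetected receptor-type genes lie above the upper line.

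The members were spread over 18 chromosomes, with 12 on chromosome 1. Among them Ptpn7 and Ptprv were neighbours, their probes 25.6 kb apart on mm9, and both were detected. Ptprb and Ptprr on chromosome 10, 44.7 kb apart, were both undetected.

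The difference between the arrays gave the only measure of error. Of the 38 detected members 0 differed by more than 2-fold, where 0.749% of the 10816 detected coding genes did. With 1 group of 2 arrays, no test was run on these differences. The median absolute difference was 0.23 on the log2 scale over the members and 0.16 over the coding genes, and single members ranged from -0.55 (Ptpn14) to 0.93 (Dusp8), replicate 2 minus replicate 1. Dusp8, at the probe of opposite orientation, was 1.91-fold higher on replicate 2 and Dusp4 1.73-fold. Under normexp background correction with quantile normalization the Dusp8 difference was 0.30 and that of Dusp4 0.56.

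On replicate 2, 7 of the 9 detected MAP kinase phosphatases were higher, with 5 of 9 receptor-type, 7 of 14 cytosolic and 3 of 6 atypical genes, and 43.5% of the detected coding genes. Scaled by the array median, which moved the median difference of all coding genes from -0.03 to -0.26, it was 4 of 9 MAP kinase phosphatases and 15.3% of the coding genes. These counts were not tested. When undetected genes are given their probe values as well, Ptprb (1.07) and Ptprm (1.32) exceed 2-fold, both at signals of at most 16.4 units.

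**Figure D5:**
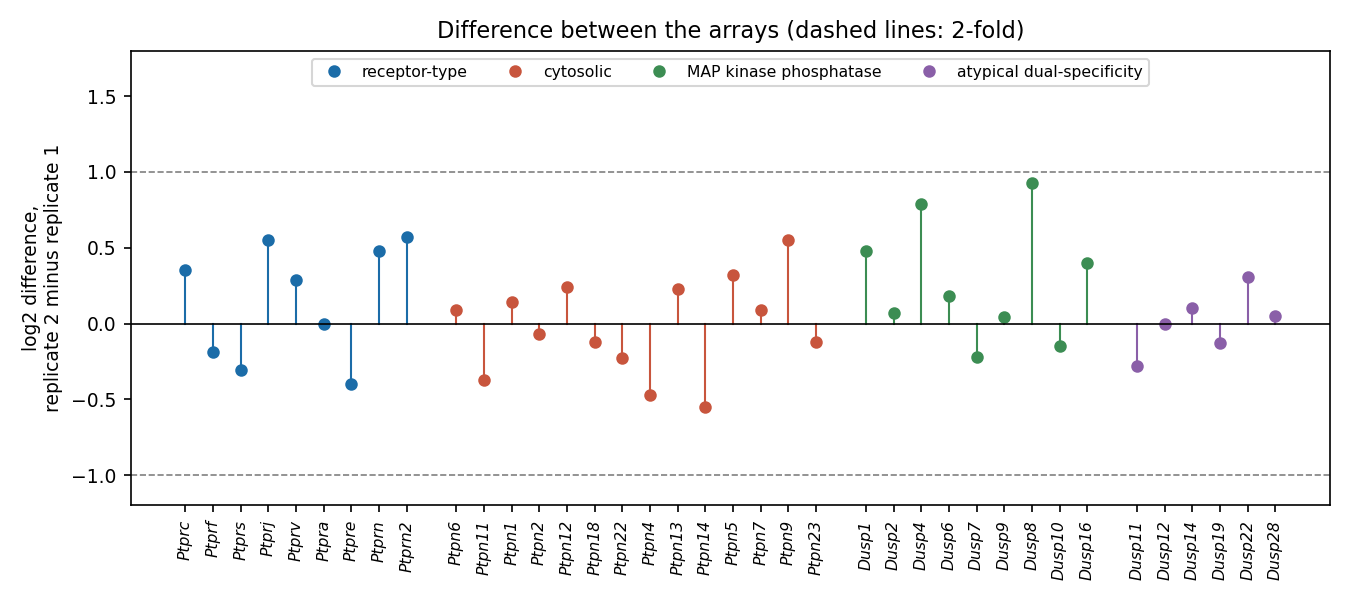
Log2 difference, replicate 2 minus replicate 1, of each detected phosphatase gene by class, with dashed lines at 2-fold. All 38 genes lie between the lines, from -0.55 for Ptpn14 to 0.93 for Dusp8.

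Of the kinases that these phosphatases act against, most tyrosine kinases and all MAP kinase kinases were detected, where 54.1% of all coding genes were. Of 13 tyrosine kinases of T-cell and cytokine signalling 12 were, among them Lck (8.86 and 8.60), Fyn (1.76 and 1.75), Csk (0.94 and 0.71) and Zap70 (6.58 and 6.47), and Syk alone was not well above background. All 7 MAP kinase kinases were detected, including Map2k1 (2.89 and 3.23) and Map2k2 (4.52 and 4.68), which activate ERK, and Map2k3 (1.37 and 1.49) and Map2k4 (0.97 and 1.78), which activate p38 and JNK. Of 13 MAP kinases 8 were detected (61.5%), near the share of all coding genes. They included Mapk3 of the ERK family (3.09 and 3.14), Mapk6 (3.85 and 3.80) and Mapk7 (3.57 and 3.56). Mapk4, Mapk10, Mapk12, Mapk13 and Mapk15 were not detected. Mapk3, a substrate of Dusp6, Dusp7 and Dusp9, was thus detected in the same RNA as these phosphatases.

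Of 16 genes that respond to ERK 7 were detected (43.8%, and 5 of the 14 with a single probe), where 54.1% of all coding genes and 47.7% of those with a single probe were. Ier2 had -2.62 and -2.02, Spry1 had 646 and 599 units, Spred1 had -0.38 and -0.45, and Spred2 had -0.92 and -1.17. The immediate early genes Egr1, Egr2 and Egr3 were not well above background, while Dusp2 was, at 6.03 and 6.10. Of 12 partners and adaptors 9 were detected, including the Csk anchor Pag1 (-2.63 and -2.52), Lime1 (4.24 and 3.81) and Sit1 (4.66 and 4.67), and Gab1, Gab2 and Ubash3b were not. Of 21 phosphatases of neighbouring families 18 were, among them Ptp4a1, Ptp4a2, Ptp4a3 and Cdc25a, and Epm2a and Eya4 were among those that were not.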

How the data were processed

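Total RNA of 2 samples of the P5424 line was labelled with Cy3 and hybridised to 1-colour Agilent 60-base arrays, per the labels' protocols. Both arrays lie on 1 slide. The intensity values are background-subtracted processed signals made by the authors, per the file headers, with Agilent Feature Extraction 10.5.1.1. The authors' deposited log2 table of these spots was an alternative: its slope against the scanner values was 0.997 and 1.01 (r = 1.000 across spots) and its column medians were both 5.18, with any offset unknown. The number of arrays limits the precision, and 0 spots were saturated.

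Each array's log2 signals were centred on the 75th percentile of its non-control probes. Spots with outlier marks were left out, which touched 0 spots of the phosphatases. Where several probes of a gene were detected, the one with the highest mean gave its value, and a fold between arrays was computed from it. Coding genes were matched by symbol, with 3296 probe names updated through a synonym in RefSeq GRCm38.p6, and probe positions are on mm9. Every phosphatase was named. Of each pathway list, the first 4 detected and first 3 undetected genes, and any group of 5 or fewer were named, except for 2 genes that are counted but not reported here. The members and lists were chosen with earlier results of these data known. Alternatives were other scalings, detection rules, choices of probe and leaving out each array, and 2 probe restrictions added after seeing the data. Scripts were tested on simulated data and used Python 3.11.15, pandas 2.3.3, R 4.3.3 and limma 3.58.1 (normexp with an offset of 50).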

Additional observations from a re-analysis of the deposited data

How the results depend on the processing

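Scaling did not enter the detection calls. The count of detected members ranged from 38 to 39 when each array was left out in turn, and that of the MAP kinase phosphatases from 9 to 10, through Dusp5. A positive and significant signal gave 45 members and 14 receptor-type genes, adding Dusp5, Dusp13, Ptprk, Ptprq, Ptprr, Ptpru and Ptprz1. It called 69.4% of the coding genes. Requiring a signal above the brightest negative control left 33 members, without Dusp8, Dusp11, Ptpn4, Ptprj and Ptprn2. That rule called 48.5% of the coding genes. Only probes named by a RefSeq transcript gave 36, without Dusp8 and Ptpn5, a restriction chosen after seeing the data, as was leaving out probes on the opposite strand (37). Other centrings shifted the values of all 38 detected members together. Averaging the detected probes of a gene moved 10 values by more than the spread between the arrays, among them Ptprs from 5.85 to 2.66, Ptpn7 from 4.01 to 1.31 and Ptpn1 from 2.84 to 0.84, and normexp with quantile normalization moved 24. Counting undetected members too, 2 differed over 2-fold between the arrays. No paired analysis was possible because there is 1 group. For an undetected gene the arrays give only an upper bound.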
